A study of Mus musculus with 17 samples.

Results

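Kinesins are motor proteins that walk along microtubules and burn ATP with each step. Part of the family carries vesicles, mitochondria and mRNA-protein particles along axons and dendrites, and the neuron depends on these motors throughout life. Another part builds the mitotic spindle and divides the cell, and its genes are transcribed mainly in dividing cells, while most neurons of the adult cortex have left the cell cycle. The mRNAs of 44 kinesin genes were followed in cortex mRNA that had been diluted and amplified. A gene was a member when the array annotation gave 1 symbol for its probe set and that symbol was Kif or Kifc with a number (and at most 1 letter) or Klc1 to Klc4. The members hold 110 of the 45037 probe sets analysed and are 44 of the 18193 genes with a symbol of their own. By their known roles, 19 genes were put in a transport class, 14 in a mitotic class and 11 in a class of other roles.

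The mRNA came from the cortex of adult female C57BL/6 mouse brain, with no treatment and no altered gene. One array took 5 µg of it without amplification and is called bulk. The other arrays began from far less of this mRNA, 10, 1 or 0.1 pg, and in vitro transcription was run on every portion by itself, for 2 or 4 rounds. There is 1 array of 10 pg after 2 rounds, and there are 3 arrays each of 1 and 0.1 pg after 2 rounds and of 10, 1 and 0.1 pg after 4 rounds, 17 in all. All of them share 1 RNA preparation, so the spread between replicates is that of dilution, amplification and hybridization, not of animals. The comparisons ask how far a gene's relative level survives dilution and further rounds. A level is given throughout on the log2 scale as the distance from the median of all probe sets on that array, and a difference is a difference of such levels. Probe sets bind their targets with unequal strength, so single genes are not ranked by level, and medians over a class serve to follow that class from array to array. A level in whole cortex also cannot tell fewer cells of a type from less RNA per cell.

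The 17 arrays differed in quality. The array of 10 pg after 2 rounds held 872 distinct values and the others 1258 to 4345, so many of its probe sets are tied. Between replicates of a group, Pearson's r over all probe sets was 0.70 to 0.73 for 0.1 pg after 2 rounds and 0.77 to 0.93 in the other groups. In bulk, 11 of 12 pan-neuronal markers and 5 of 5 markers of excitatory neurons lay above the array median, beside 61.0% of all genes. So did 4 of 6 for inhibitory neurons, 4 of 6 for astrocytes, 4 of 5 for oligodendrocytes, 5 of 6 for microglia and 5 of 6 for vessels. Of the markers of blood 1 of 2 lay above, and of those of choroid plexus and ependyma 1 of 4.

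The promoters of the classes differ in a way that the grouping did not use. RefSeq promoters (GRCm38.p6, 250 bases before and 50 bases from the start of transcription) were at hand for 36 of the 44 genes, as 40 windows. They were searched on both strands for TTTGAA, the core of the cell cycle genes homology region, an element known from promoters that are held silent in resting cells. It stood in 11 of 13 windows of mitotic genes, in 1 of 16 of transport genes and in 2 of 11 of the other genes, against 17.9% of all 32851 promoter windows. In 9 of those 11 mitotic genes, a copy began within 30 bases of the start. The near-identical genes Kifc1 and Kifc5b are both among the 9. The share of all windows with a copy so close was not counted, so this count has no background. Kif26b, of the other class, also has a copy there, which begins 9 bases before the start. The copies closest to the start are shown for 8 mitotic genes, with 10 bases on either side, because they are what these promoters share. The sequences read 5′ to 3′ on the strand of the gene, and capitals mark the motif.
Kif11, chr19:37376353-37376378 (+): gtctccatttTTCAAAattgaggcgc
Kif15, chr9:122951052-122951077 (+): gggcgccaaaTTCAAAtctgcggcca
Kif22, chr7:127042422-127042447 (-): gccccggtaaTTCAAAagagagaagc
Kif23, chr9:61946782-61946807 (-): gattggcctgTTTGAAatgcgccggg
Kif18b, chr11:102925106-102925131 (-): gaccggctagTTTGAAcgcgccgcgc
Kif20b, chr19:34922355-34922380 (+): gccgccattgTTTGAAtttgaaaacc
Kif4, chrX:100626074-100626099 (+): ctgggatcaaTTTGAAacttggcggt
Kifc1, chr17:33890617-33890642 (-): gaggttgaaaTTCAAAagtggcgggt
The first base of the motif lies 19, 19 and 17 bases before the start in Kif11, Kif15 and Kif22, and at base 3, 4, 8, 20 and 2 of the transcript in Kif23, Kif18b, Kif20b, Kif4 and Kifc1. The window of Kif20b runs into a further copy that begins at base 14. The only transport gene with a copy in its window was Kif1a, shown for contrast, where the motif begins 44 bases before the start.
Kif1a, chr1:93082509-93082534 (-): tgacagcctcTTTGAAcattgctcct
The letters GGGCGG, known as the GC box, stood in 13 of 16 transport windows, 6 of 13 mitotic ones and 7 of 11 other windows, against 35.7% of all windows. The letters CCAAT stood in 9 of 13 mitotic, 6 of 16 transport and 4 of 11 other windows, against 37.4% of all. For TATAAA it was 1 of 13 mitotic, 1 of 16 transport and 3 of 11 other windows, against 13.6% of all. All searches covered both strands. Of the 126 matches in the 40 windows, 1 pair of different motifs shared a base. A match is a string of letters, not a shown binding site.

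The transport class lay above the array median on most arrays and the mitotic class around or below it. Each gene is represented here by 1 probe set, the one whose average over the 17 arrays is highest. In bulk, 16 of 19 transport genes and 6 of 14 mitotic genes were above the median of the array, beside 61.0% of all genes, and the class medians were 1.50 and -0.24. Over the 17 arrays, 13 to 19 of the transport genes and 3 to 9 of the mitotic genes were above, beside 55.0% to 64.0% of all genes. A gene is taken by its highest probe set, so more genes than not lie above the median of all probe sets. The transport class has 64 probe sets for its 19 genes and the mitotic class 27 for 14, which gives transport genes more probe sets to take the highest from.

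**Figure D1:**
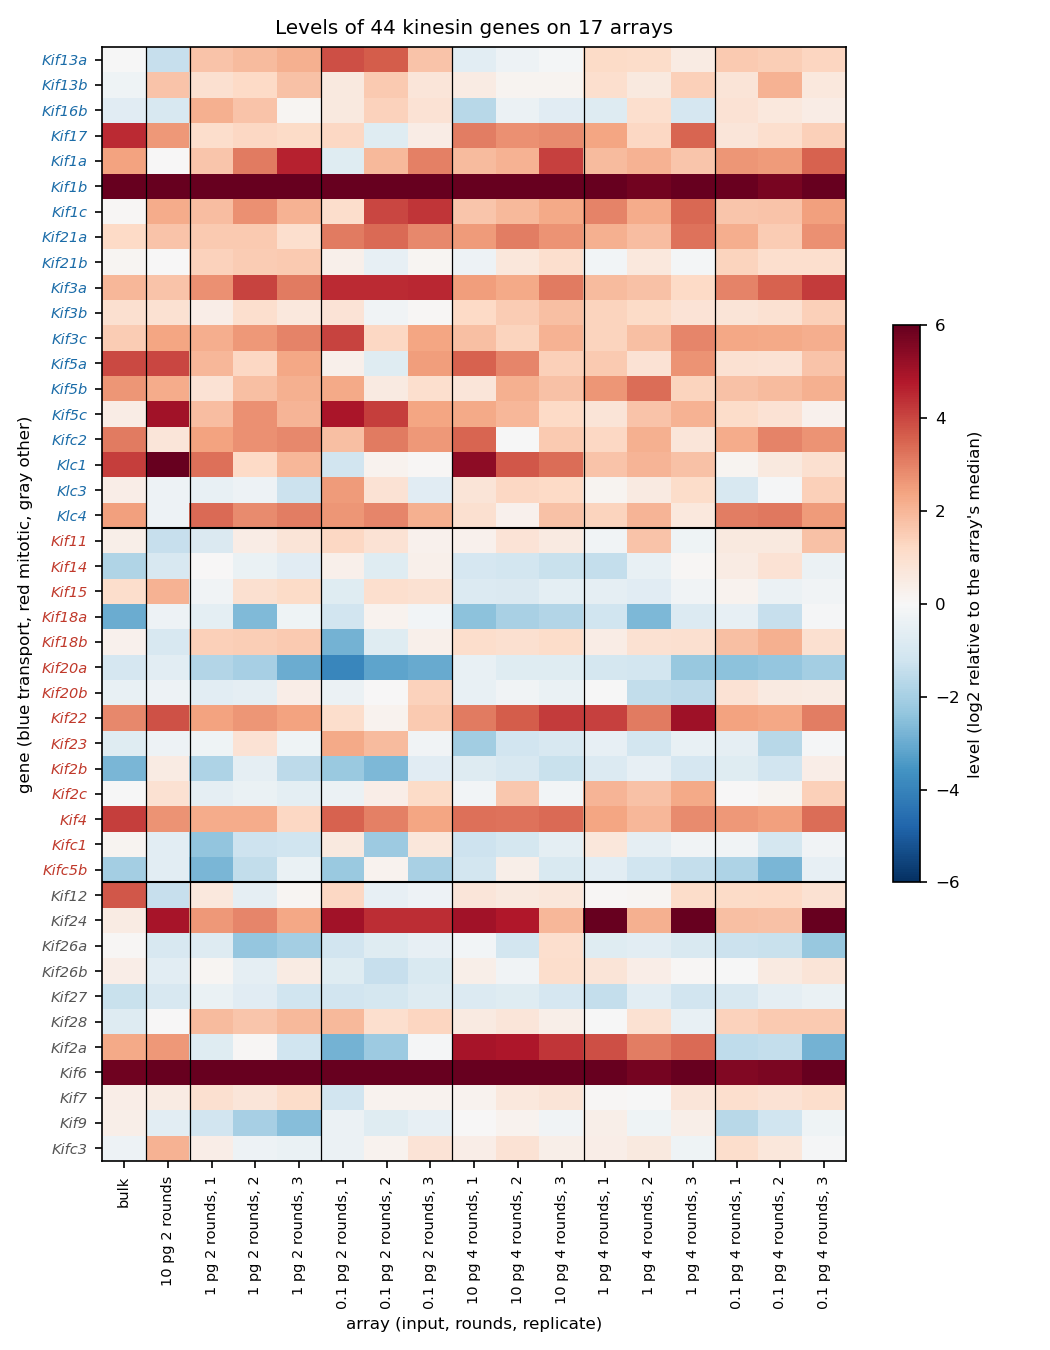
Levels of 44 kinesin genes (rows, each by 1 probe set) on 17 arrays (columns), as log2 distance from the array median, with colors cut at -6 and 6. The 19 transport genes are mostly red, above the median, and the 14 mitotic genes mostly pale or blue, while Kif2a turns from red to blue between 10 or 1 pg and 0.1 pg after 4 rounds.

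Among the motors of axonal transport, conventional kinesin pairs heavy chains, encoded by Kif5a, Kif5b and Kif5c, with light chains that hold cargo. In bulk, the level was 3.98 for Kif5a, 2.65 for Kif5b and 0.44 for Kif5c, and over the 16 amplified arrays it ran from -0.74 to 4.03, 0.56 to 3.37 and 0.24 to 5.02. These levels and those that follow are of the 1 probe set that represents each gene, and others of the gene can read otherwise. In bulk, the 4 of Kif5c ran from -0.56 to 3.83 and the 6 of Kif5b from -1.38 to 2.65. The 3 of Kif17 ran from -2.07 to 4.48 and the 7 of Kif1b from 0.079 to 6.56. The light chain genes were at 4.14 (Klc1), 0.41 (Klc3) and 2.45 (Klc4) in bulk, and Klc1 had the widest amplified range of the 3, -1.15 to 6.73. Kif3a and Kif3b encode the paired motor subunits of kinesin-2, which also serves cilia, and stood at 1.98 and 0.96 in bulk. Kif17, a kinesin-2 known for carrying NMDA receptor vesicles in dendrites, was at 4.48 in bulk and at -0.74 to 3.51 after amplification. In the kinesin-3 family, Kif1a, the motor of synaptic vesicle precursors, was at 2.40 in bulk, and Kif1b, which carries such precursors and mitochondria, at 6.56. The amplified range of this Kif1b probe set was 5.68 to 7.35, far above the array median at every input. Kif1c, Kif13a, Kif13b and Kif16b, which move vesicles and endosomes, were between -0.69 and 0.051 in bulk. Kif21a and Kif21b, kinesin-4 motors of neurons, and Kifc2, which walks toward the minus end, were at 1.20, 0.13 and 3.10.

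Among the mitotic genes, 2 stood above the median on all 17 arrays by the probe set that represents them. They encode the chromokinesins, which push on chromosome arms: Kif4 was at 4.15 in bulk and 1.26 to 3.55 after amplification, and Kif22 (probe set 1437716_x_at) at 2.86 and 0.21 to 5.10. The suffix _x_at marks probes that can bind other transcripts, so the source of the Kif22 signal is uncertain. In bulk, the 3 probe sets of Kif22 ran from -2.54 to 2.86. Kif11 and Kif15, which slide spindle microtubules apart, were at 0.35 and 1.03 in bulk. The genes of cytokinesis Kif14, Kif20a, Kif20b and Kif23 were at -1.83, -1.02, -0.43 and -0.72, and Kif20a remained below the median on every array, with an amplified range of -3.92 to -0.43. Kif18a, Kif2b and Kif2c shorten microtubules at kinetochores and were at -2.99, -2.75 and -0.039, and Kif18b, which acts on astral microtubules, was at 0.25. Kifc1 and Kifc5b, minus-end motors of the spindle, were at 0.14 and -2.03. The 2 genes are near-identical copies, so either signal may hold the other's. The promoter copies of TTTGAA shown above belong to genes above the median of the bulk array, such as Kif4, and below it, such as Kif20b.

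The gap between the classes differed between inputs, and its course depended on the probe sets used. The median of the transport class minus that of the mitotic class was 1.74 in bulk and 2.01 for 10 pg after 2 rounds. It was 2.33 ± 0.087 (SD, n = 3) for 1 pg and 1.78 ± 0.39 (SD, n = 3) for 0.1 pg after 2 rounds, and after 4 rounds 2.38 ± 0.051 for 10 pg, 1.87 ± 0.35 for 1 pg and 1.55 ± 0.094 for 0.1 pg (SD, n = 3 each). The 10 and 0.1 pg groups after 4 rounds do not overlap in this gap, while the mitotic median itself moved from -0.55 ± 0.071 to 0.063 ± 0.15. With the median of each gene's probe sets in place of the highest one, the gap was 1.60 in bulk, 1.46 for 10 pg and 1.10 for 0.1 pg after 4 rounds, and 0.89 and 0.49 for 10 and 0.1 pg after 2 rounds. With probe sets below the median left out, which removes genes of low level, it was 0.81 in bulk, 0.20, 0.92 and 1.17 for 10, 1 and 0.1 pg after 2 rounds and 0.90, -0.019 and 0.23 after 4. In that setting the gap after 2 rounds was thus widest at 0.1 pg.

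**Figure D2:**
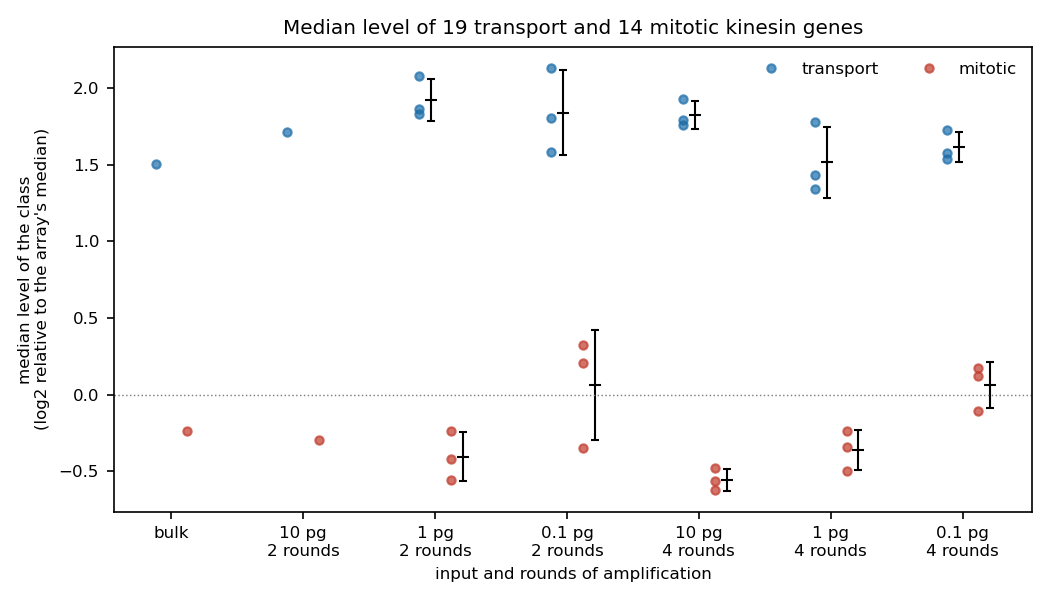
Median level of the 19 transport genes (blue) and the 14 mitotic genes (red) on each array, as log2 distance from the array median, by input and rounds; black marks are the mean and SD of 3 arrays. The transport medians stay above the mitotic ones on all 17 arrays, and the mitotic median is highest at 0.1 pg, 0.062 after 2 rounds and 0.063 after 4.

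From 10 to 0.1 pg after 4 rounds, the first comparison, 5 of the 44 genes passed the test, 11.4% beside 9.97% of all 18193 genes, where 4.97% were higher and 4.99% lower (limma over all 45037 probe sets, Benjamini-Hochberg adjusted p under 0.05). Klc1, Kif20a and Kif2a were lower at 0.1 pg, and Klc4 and Kif13a were higher. Kif2a, a microtubule depolymerase that prunes axon branches in neurons, had the steepest fall. Its levels (1450052_at) were 4.93, 4.85 and 4.29 at 10 pg, 3.88, 3.07 and 3.41 at 1 pg and -1.53, -1.43 and -2.85 at 0.1 pg, beside 2.28 in bulk. Between 10 and 0.1 pg it fell by 6.63 (standard error 0.62, adjusted p = 4.48e-05), from above the array median to below it, and the arrays did not overlap.

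Klc1, by its probe set 1417005_at, fell by 3.57 (standard error 0.60, adjusted p = 0.00185). Its levels were 5.34, 3.74 and 3.36 at 10 pg, 1.71, 2.02 and 1.76 at 1 pg and 0.18, 0.60 and 0.98 at 0.1 pg, beside 4.14 in bulk. The 10 pg arrays were thus near bulk, and the 3 inputs did not overlap. The choice of this probe set for Klc1 was close, with an average over all arrays of 2.13, beside 2.01 for 1448541_at. At 10 pg after 4 rounds their means were 4.15 and 0.64, so the choice leaned on the high side of this comparison. In the same comparison 1448541_at differed by 1.97, in the other direction. The fall is therefore that of the chosen probe set and not shown for the gene. Kif20a, a motor of cytokinesis, went from -0.43, -0.74 and -0.71 to -2.46, -2.31 and -2.06, a difference of -1.65 (standard error 0.46, adjusted p = 0.0337). All 6 of these levels are below the array median.

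Klc4 is a further light chain gene. The levels of its probe set 1417108_at were 0.98, 0.24 and 1.76 at 10 pg and 3.08, 3.15 and 2.53 at 0.1 pg, so that it rose by 1.93 (standard error 0.48, adjusted p = 0.0201), and bulk was at 2.45. Kif13a went from -0.61, -0.29 and -0.11 to 1.58, 1.49 and 1.30, so that it rose by 1.79 (standard error 0.50, adjusted p = 0.0344), and its bulk level of -0.0063 was near that of the 10 pg arrays. Other probe sets of these genes differed in sign. That of Klc4, 1425547_a_at, was at -0.24, 0.18 and -0.33 at 10 pg and -2.09, -1.76 and -0.68 at 0.1 pg (-1.38, adjusted p = 0.134), and the 5 of Kif13a ran from -0.51 to 1.79 with 1 called. By the median over the probe sets of each gene, the difference was 0.28 for Klc4 (adjusted p = 0.683), -0.041 for Kif13a (adjusted p = 0.966) and -0.25 for Klc1 (adjusted p = 0.779), so these calls rest on 1 probe set each. The calls on Kif2a and Klc1 held without any 1 of the 15 replicated arrays. Those on Kif13a and Kif20a were lost (adjusted p up to 0.13) without any 1 of the 6 arrays compared, and that on Klc4 without replicate 1 or 2 of either input. The count of 5 became 2 without replicate 1 of 10 pg or replicate 1 or 2 of 0.1 pg, and 3 without replicate 2 or 3 of 10 pg.

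**Figure D3:**
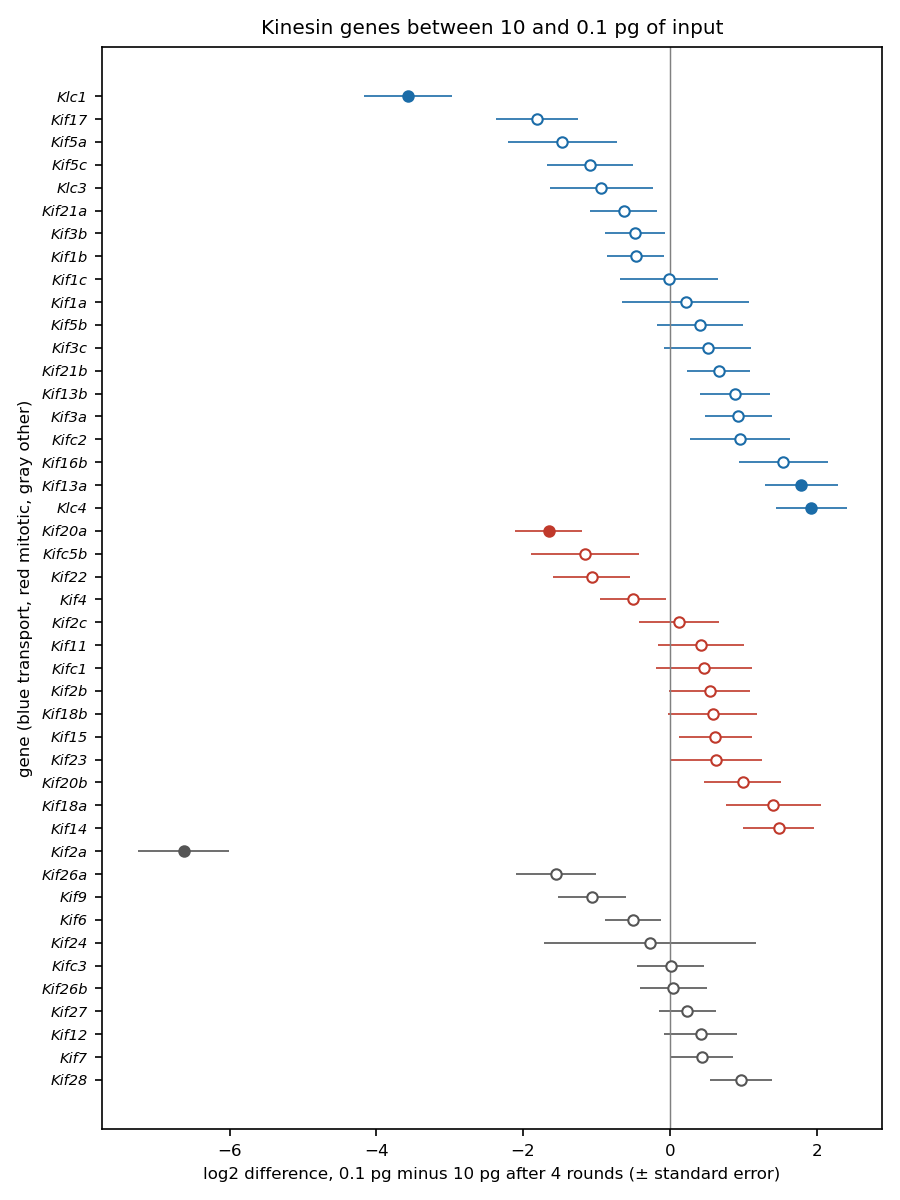
Difference in level between 0.1 and 10 pg after 4 rounds (log2, 0.1 pg minus 10 pg, with its standard error) for the 44 kinesin genes by class, filled where the adjusted p is under 0.05. Kif2a lies farthest from 0 at -6.63. Above 0 lie 10 of 14 mitotic and 10 of 19 transport genes, where the median over all genes is itself above 0, at 0.13. A difference between the classes was not tested.

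The other genes did not pass. In the transport class, 10 differences were positive and 9 negative with a median of 0.21, and in the mitotic class 10 were positive and 4 negative with a median of 0.50, beside a median of 0.13 over all genes. Kif17 was at 3.08, 2.73 and 2.83 at 10 pg and 0.73, 1.03 and 1.43 at 0.1 pg (-1.82, adjusted p = 0.0526), so its arrays did not overlap and it missed the threshold. The 3 probe sets of Kif17 ran from -1.82 to 1.59, in both directions. Kif14 differed by 1.49 (adjusted p = 0.0662), and the heavy chain genes Kif5a, Kif5b and Kif5c by -1.46, 0.41 and -1.08.

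Over all probe sets of the members, 13 of 110 passed in this comparison (11.8%, beside 8.86% of all 45037), 5 higher and 8 lower at 0.1 pg, beside 4.04% and 4.83% of all. Of the 64 transport probe sets, 2 were higher and 6 lower with a median difference of -0.26, and of the 27 mitotic ones 1 was higher and 1 lower with a median of 0.55, beside a median of 0.10 over all probe sets. The transport probe sets that fell, besides that of Klc1, belong to Kif1b (-3.68 and -2.01), to Kif3b (-1.66 and -1.94) and to Kif3c, a partner of Kif3a (-1.85). In Kif1b, probe set 1451200_at read 4.37, 3.82 and 2.20 at 10 pg and -1.26, -0.65 and 1.27 at 0.1 pg. Probe set 1451642_at, which represents the gene, read 6.56, 6.53 and 6.50 and 5.95, 5.68 and 6.57, which differ by -0.46. In Kif3c, 1434947_at fell, while 1448946_at, which represents that gene, did not. It read 1.79, 1.32 and 2.08 at 10 pg and 2.31, 2.25 and 2.17 at 0.1 pg.

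RNA markers moved with this dilution as well. The mean level of 12 pan-neuronal markers was 3.35 to 4.38 on the 10 pg arrays and 1.44 to 2.23 on the 0.1 pg arrays. By the same test, 5 of the 12 were lower and 0 higher, beside 4.99% and 4.97% of all genes. The level of the 3′ probe set of Actb minus that of its 5′ probe set was 0.62 to 1.76 at 10 pg and -0.98 to -0.75 at 0.1 pg, and the same difference for Gapdh was 4.69 to 5.03 and 3.68 to 3.90. The part of either in the kinesin differences was not tested.

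Between 1 and 10 pg after 4 rounds, 0 of 44 genes passed, beside 0.654% of all genes. The methods' t-test called 0 too, and it called 0 over all genes. An unadjusted p under 0.05 was found for 4 kinesin genes, beside 9.87% of all genes. These 4 are named after their values were seen: Klc1 (-2.32), Kif3a (-1.01), Kif13a (1.26) and Kif2c (1.61), with adjusted p from 0.104 to 0.487. Kif2a, at 3.88, 3.07 and 3.41 with 1 pg, differed by -1.24 (standard error 0.62, adjusted p = 0.575) from 10 pg. Most of its fall therefore lay between 1 and 0.1 pg. The median difference was -0.31 over the transport genes and 0.27 over the mitotic genes, beside 0.068 over all genes.

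From 1 to 0.1 pg, averaged over 2 and 4 rounds, 3 of 44 genes passed (6.82%, beside 1.50% of all genes). Kif2a fell by 3.24 (standard error 0.44, adjusted p = 0.00146) and Klc1 by 1.86 (standard error 0.42, adjusted p = 0.0421), while Kif3a rose by 1.57 (standard error 0.32, adjusted p = 0.0244). After 2 rounds, Kif2a was at -0.73, 0.087 and -1.18 with 1 pg and -2.83, -2.20 and -0.073 with 0.1 pg. Its 1 pg arrays after 2 rounds thus already lay below those after 4 rounds. Klc1 was at 3.32, 1.19 and 2.00 and -1.15, 0.21 and 0.069 after 2 rounds, with all 0.1 pg arrays below all 1 pg arrays at both numbers of rounds. Kif3a was at 2.74, 4.05 and 3.13 and 4.47, 4.49 and 4.54 after 2 rounds and at 1.91, 1.78 and 1.20 and 2.98, 3.53 and 4.22 after 4, so that at equal rounds the inputs did not overlap. The fall of Kif2a passed without any 1 array, that of Klc1 in 5 of 15 such fits and the rise of Kif3a in 10. By the median over the probe sets of each gene, none of the 3 passed, and Kif3a, with 4 probe sets, turned to -0.41 (adjusted p = 0.518), beside -0.27 for Kif2a and -1.35 for Klc1. The count was 1 without replicate 1 or 3 of 1 pg after 2 rounds, replicate 3 of 1 pg after 4 rounds, or replicate 2 or 3 of 0.1 pg after 4 rounds, and 5 without replicate 3 of 0.1 pg after 2 rounds. This comparison shares the 0.1 and 1 pg arrays with the ones above, so the calls on Kif2a and Klc1 are not independent of them.

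From 2 to 4 rounds, averaged over 1 and 0.1 pg, 5 of 44 genes passed (11.4%, beside 4.27% of all genes). Kif2a and Kif22 were higher after 4 rounds, by 1.91 (standard error 0.44, adjusted p = 0.027) and 1.64 (standard error 0.37, adjusted p = 0.0247). The transport genes Kif5c, Kif3a and Kif13a were lower, by -1.87 (standard error 0.41, adjusted p = 0.0231), -1.30 (standard error 0.32, adjusted p = 0.0352) and -1.31 (standard error 0.35, adjusted p = 0.0491). Kif5c, a heavy chain gene of neurons, was at 1.86, 2.72 and 2.05 with 1 pg and 4.89, 4.14 and 2.37 with 0.1 pg after 2 rounds, and at 0.78, 1.73 and 2.06 and 1.11, 0.86 and 0.24 after 4. Its 0.1 pg arrays did not overlap between the rounds and its 1 pg arrays did, at 2.05 and 2.06. Kif22 was at 2.40, 2.67 and 2.40 and 1.04, 0.21 and 1.56 after 2 rounds and at 4.12, 3.11 and 5.10 and 2.40, 2.31 and 3.06 after 4, higher after 4 rounds on every array at equal input. Its probe set 1423813_at had 4 minus 2 rounds at -3.07 with 1 pg and 1.38 with 0.1 pg. By the median over the probe sets of each gene, none of the 5 passed: Kif2a turned to -0.27 (adjusted p = 0.653), and Kif22 was at 0.20, Kif5c at -0.037, Kif3a at -0.14 and Kif13a at -0.30. The Kif13a call held under 2 of 24 alternatives and in 1 of 15 fits without 1 array. The count became 0 when replicate 1 of 1 pg after 4 rounds was left out, and 9 when replicate 3 of 0.1 pg after 2 rounds was. It was 1 or 2 without any other replicate of these groups except replicates 1 and 2 of 0.1 pg after 2 rounds and replicate 2 of 1 pg after 4 rounds.

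The effect of the rounds depended on the input for 4 of 44 genes (9.09%, beside 4.00% of all genes), by the interaction term of the same fit. For Kif2a, 4 minus 2 rounds was 4.06 at 1 pg and -0.24 at 0.1 pg, a difference of -4.30 (standard error 0.88, adjusted p = 0.0181). Kif9, a motor of cilia, went the same way, with 2.05 at 1 pg and -0.53 at 0.1 pg (adjusted p of the difference = 0.0402). Kif18b, a mitotic gene, was opposite, with -0.72 at 1 pg and 2.71 at 0.1 pg (adjusted p = 0.0369), and so was Kif21b, with -1.37 and 1.14 (adjusted p = 0.0338). The 0.1 pg arrays after 2 rounds spread widely for Kif18b, at -2.83, -0.74 and 0.33. By the median of their probe sets, Kif2a was at -0.25 (adjusted p = 0.852) and Kif21b at 0.18 (adjusted p = 0.861). The Kif2a call was lost without replicate 3 of 1 pg after 2 rounds or replicate 1 of 1 pg after 4 rounds, where the count was 0. That count was 1 or 2 when replicate 1 or 2 of 1 pg after 2 rounds, replicate 1 of 10 pg, replicate 3 of 1 pg or replicate 1 or 2 of 0.1 pg after 4 rounds was left out. Over all probe sets of the members, 7 of 110 passed (6.36%, beside 3.59% of all).

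**Figure D4:**
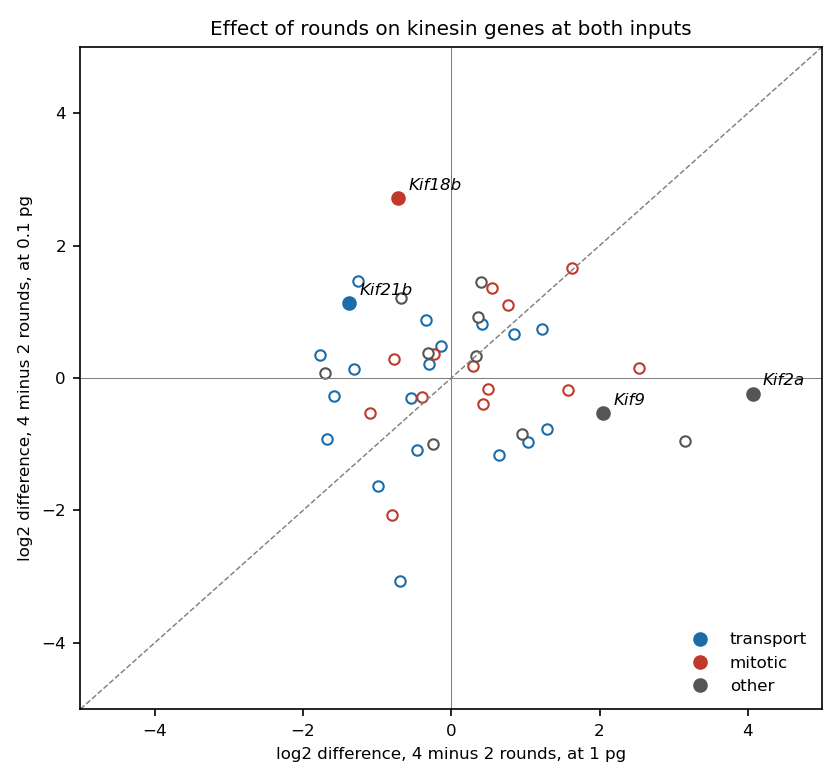
Difference in level between 4 and 2 rounds (log2, 4 minus 2) at 1 pg (horizontal) and at 0.1 pg (vertical) for the 44 kinesin genes, filled and named where the 2 effects differ with an adjusted p under 0.05; the dashed line marks equal effects. Kif2a and Kif9 lie to the right, at 4.06 and 2.05 with 1 pg, and Kif18b lies at the top, at 2.71 with 0.1 pg.

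Against bulk, the mean of the 6 amplified groups differed for 1 of 44 genes (2.27%, beside 0.819% of all genes). Kif12 was at 3.74 in bulk and at -1.38 to 1.26 on the amplified arrays, lower on 16 of 16, and the difference was -3.57 (standard error 0.63, adjusted p = 0.0119). By the median of its 2 probe sets it was -2.02 (adjusted p = 0.0515). The count was 3 when replicate 1 of 0.1 pg after 2 rounds was left out, and 2 when replicate 3 of 1 pg after 4 rounds was. Bulk is 1 array, so its own deviation and the effect of amplification cannot be told apart. Among the transport genes, Kif17 was lower than bulk on 16 of 16 amplified arrays (-2.75, adjusted p = 0.0791), and Kif1c was higher on 16 of 16, at 1.04 to 4.31 beside 0.051 (2.34, adjusted p = 0.223). Neither passed. Over the probe sets, the median difference was -0.34 for the transport class and 0.65 for the mitotic class, beside 0.098 for all probe sets, and 0 of 64 and 0 of 27 passed in limma, while 20 and 5 had an unadjusted p under 0.05. Over all probe sets, 1.10% passed and 13.4% had an unadjusted p under 0.05. The 3 probe sets of Kif5a differed by -2.95 to -1.85 and the 6 of Kif5b by -2.56 to -0.32, while the 4 of Kif5c, the remaining heavy chain gene, ran from -2.51 to 2.08, in both directions.

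Probe sets of the same gene often gave unlike answers. Of the 44 genes, 16 have 1 probe set, 8 have 2 and 20 have 3 or more. The 7 probe sets of Kif1b differed by -3.68 to 1.49 between 0.1 and 10 pg after 4 rounds, with 2 lower and 0 higher. Of the 5 probe sets of Kif2a, 1 was lower and 2 higher, from -6.63 to 2.30. The 2 that rose, 1432072_at and 1454107_a_at, read -1.82, -1.25 and -1.11 and -3.30, -2.69 and -2.95 at 10 pg, and 1.81, 1.17 and -0.26 and -0.67, -1.57 and -0.99 at 0.1 pg. By the median of its probe sets Kif2a differed by 0.38 (adjusted p = 0.61), so its call rests on 1 probe set.

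Klc1 was split in the same manner. Probe set 1448541_at read 4.00 in bulk, 0.69, 0.13 and 1.09 at 10 pg and 2.62, 2.71 and 2.48 at 0.1 pg, a difference of 1.97 (adjusted p = 0.102), while 1417005_at fell. Kif22 had probe set 1423813_at higher at 0.1 pg by 2.33 (standard error 0.59, adjusted p = 0.0215) and its 1437716_x_at at -1.07 (adjusted p = 0.212). Kif3b was of 1 direction, with 4 of 4 probe sets between -1.94 and -0.48 and 2 of them lower. So were Kif5a (-1.46 to -0.25) and Kif5c (-1.98 to -0.38), with 0 called, and Kif16b, which was positive at 1.55 to 1.79 in 3 of 3, with 0 called. The mitotic genes Kif11 (0.078 to 1.35) and Kif23 (0.093 to 1.05), with 3 probe sets each, were positive too, with 0 called.

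**Figure D5:**
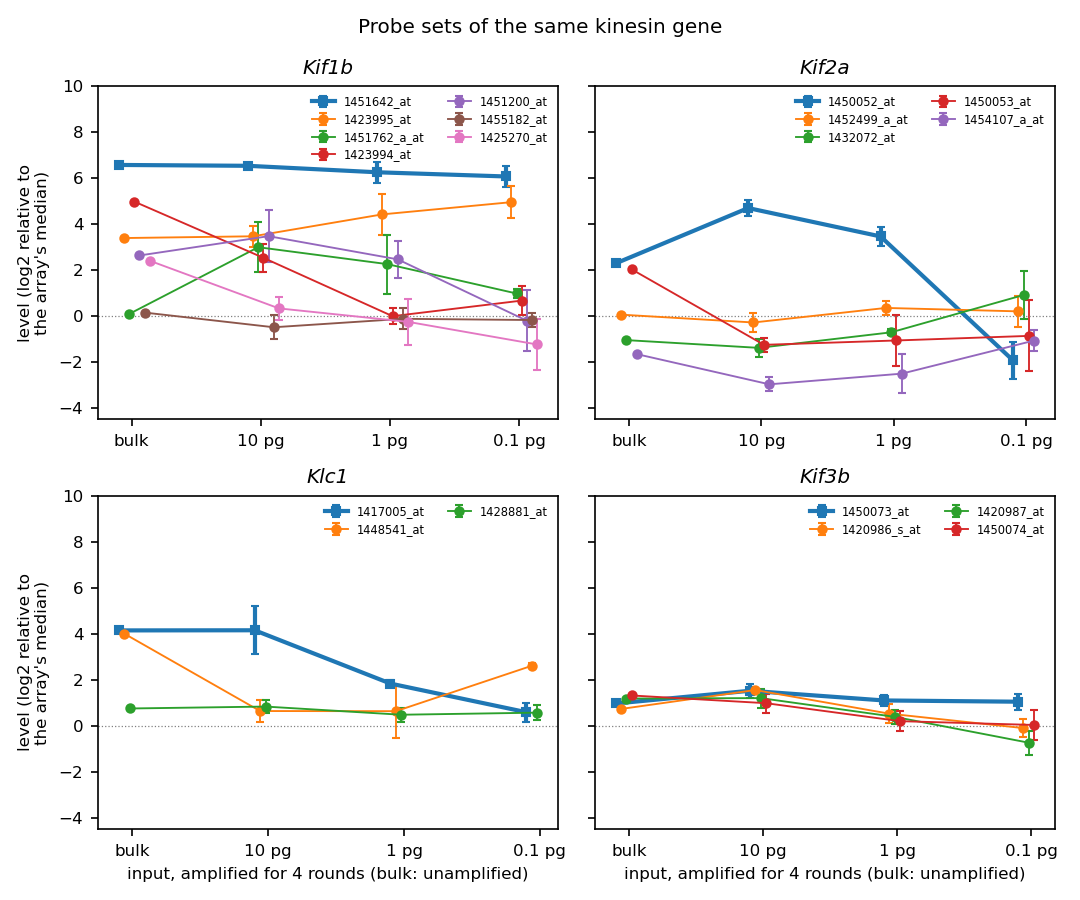
Levels (log2 distance from the array median) of each probe set of Kif1b, Kif2a, Klc1 and Kif3b in bulk (1 array) and at 10, 1 and 0.1 pg after 4 rounds (mean and SD of 3 arrays); squares mark the one that represents the gene. In Kif2a and Klc1 that probe set differs by -6.63 and -3.57 between 0.1 and 10 pg while others of the gene lie higher, and in Kif3b the 4 differences are all negative.

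The median SD of the 44 genes over 3 arrays was 0.30 for 10 pg, 0.45 for 1 pg and 0.45 for 0.1 pg after 4 rounds, and 0.49 and 0.69 for 1 and 0.1 pg after 2 rounds, beside 0.40, 0.53, 0.41, 0.46 and 0.82 over all genes. The value at 10 pg was the lowest for the 44 genes together, but in the transport class it was 0.42 for 10 pg, beside 0.40 for 0.1 pg (4 rounds) and 0.39 for 1 pg (2 rounds). Kif24, a depolymerase of centrioles, had the widest spread at 1 and 0.1 pg after 4 rounds, with an SD of 3.24 and 3.27. Its levels were 7.01, 2.12 and 8.23 at 1 pg and 1.80, 1.78 and 7.46 at 0.1 pg, with 1 or 2 arrays far above the rest, and 0.50 in bulk. Kif1a was the most variable after 2 rounds, at 1.65, 3.11 and 4.63 with 1 pg and -0.72, 1.96 and 3.04 with 0.1 pg. Kifc2 was so at 10 pg, at 3.51, -0.039 and 1.58. Kif1b (1451642_at) had the smallest SD at 10 pg, 0.028.

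The partners of these motors were read from lists of their own. Of 20 genes of dynein and dynactin, the motor of the opposite direction, 6 were lower and 0 higher at 0.1 than at 10 pg after 4 rounds, with a median of -0.90 beside 0.13 over all genes, where 4.99% of all genes were lower. The 3 that fell most were Dync1li2, a light intermediate chain of dynein (-3.69), Dctn5, a dynactin subunit (-3.47), and Dynlt3, a dynein light chain (-3.35). Dync1li2, Dctn5, Dync1i2 and Dctn4 were also lower at 0.1 than at 1 pg over both rounds, where 1.28% of all genes were lower. Of 19 adaptors that tie kinesins to cargo, 1 was higher at 0.1 than at 10 pg, Mapk8ip1 (1.60), and 0 were lower, where 4.97% of all genes were higher. Clstn1, which binds light chains, was lower at 0.1 than at 1 pg (-1.99), the 1 call of that list there. Of 20 genes of cell division, 8 lay above the array median in bulk, beside 61.0% of all genes. Ttk (1.84) and Top2a (1.77) were higher at 0.1 than at 10 pg after 4 rounds, and 0 were lower. In that comparison 4.97% of all genes were higher and 4.99% lower. The median difference was 0.62 over the 20 genes, beside 0.13 over all genes. Beside them the lists of astrocyte, microglia, blood and choroid plexus markers held 0 calls in that comparison, and those of oligodendrocytes and vessels 1 higher each, with 1 lower in vessels. The lists of excitatory and inhibitory neurons, of 5 and 6 genes, held 1 lower each and 0 higher.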

How the data were processed

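Affymetrix mouse arrays measured cortex mRNA in 17 hybridizations. The authors summarized the probes with RMA 2.0 and the upper decile statistic, and deposited log2 values, whose array medians lie between 5.64 and 6.01. The centering and scaling that the methods describe are not in them. Both steps were therefore applied here: the array median was subtracted, and the spread between percentiles 10 and 90 was set to 4.63, its mean over arrays. The 64 control probe sets were left out, and of the 45037 others, 34945 carry 1 gene symbol, 932 several and 9160 none. The number of arrays limits the precision.

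All probe sets were fitted with limma 3.58.1 in R 4.3.3 (7 group means, eBayes, 16.4 total degrees of freedom) and p-values adjusted by Benjamini and Hochberg. The single arrays take their error from the replicated groups. Since replicates are amplifications of 1 RNA, p-values measure only that spread. The probe set with the highest average represents a gene. That average runs over the same arrays that are then compared, so a call on such a probe set is not independent of its choice. Scripts were tested on simulated data. Sequences and motifs were read from RefSeq promoters with python 3.11.15 and pandas 2.3.3, and figures drawn with matplotlib 3.10.9.

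The members, classes and lists were chosen with earlier results of these data known. Named were the transport and mitotic genes, the genes called in each comparison, genes with 3 or more probe sets, Kif2a and Kif24, the other genes with extreme differences, and called genes of the lists of partners. Lists hold cargo adaptors, dynein and dynactin, cell division genes, and markers of neurons (pan-neuronal, excitatory, inhibitory), astrocytes, oligodendrocytes, microglia, vessels, blood and choroid plexus. Klc2, Kifc5a, Kif19a and Kif19b are not analysed here. Alternatives were values as deposited, centering without scaling, quantile normalization, leaving out probe sets below the median, only the compared groups, the methods' t-test and false discovery rate of 0.1%, the replicate block, any or the median probe set of a gene, and each replicate or the 10 pg array after 2 rounds left out.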

Additional observations from a re-analysis of the deposited data

Results flagged for a closer look

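For 7 probe sets of 6 kinesin genes, the effect of going from 2 to 4 rounds differed between 0.1 and 1 pg of input by the interaction term in limma (adjusted p under 0.05 over all 45037 probe sets, of which 3.59% passed). The values are log2 effects of rounds at 0.1 pg minus those at 1 pg. Kif2a (1450052_at) differed by -4.30, Kif20b (1440924_at) by -3.63, Kif9 (1420395_a_at) by -2.57 and Kif21b (1421119_at) by -2.14. Kif22 (1423813_at) differed by 4.45, Kif18b (1453226_at) by 3.43 and Kif21b (1435772_at) by 2.51.

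The 2 probe sets of Kif21b thus moved in opposite directions. For 1435772_at, 4 minus 2 rounds was -1.37 at 1 pg and 1.14 at 0.1 pg, and for 1421119_at it was 1.68 and -0.47. Kif22 (1423813_at) was at 4.21, 4.34 and 4.35 with 1 pg and 2.66, 2.44 and 3.72 with 0.1 pg after 2 rounds, and at 1.18, 2.40 and 0.11 and 4.27, 4.10 and 4.58 after 4. Its call and no other of the 7 held without any 1 of the 15 replicated arrays, and the others held in 4 to 13 of 15 such fits. Kif20b (1440924_at) was at -0.72, -1.38 and 0.20 with 0.1 pg after 2 rounds and at -3.72, -3.09 and -3.71 after 4, where the level is far below the array median. No value bears on the cause, which was not tested.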

How the results depend on the processing

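The counts of kinesin genes called are given as higher and lower together, save where both are named. For 0.1 against 10 pg (5 called), the count was 8 when fitted on the compared groups alone, 9 when any probe set of a gene counted, 1 at the methods' false discovery rate of 0.1% and 2 to 7 without 1 replicate. With values as deposited or median centering alone it was 3 higher and 4 lower, and after quantile normalization 2 higher and 4 lower. For 0.1 against 1 pg (3 called), it was 0 by the methods' t-test, by the median over probe sets and at the rate of 0.1%, and 1 to 5 without 1 replicate. It was 1 higher and 3 lower with median centering alone, after quantile normalization or with probe sets below the median left out. For 4 against 2 rounds (5 called), it was 3 with values as deposited, with median centering but no scaling, after quantile normalization or with the replicate block, 2 with the compared groups alone, 0 by the t-test, the median of probe sets or the rate of 0.1%, and 0 to 9 without 1 replicate. With probe sets below the median left out it was 3 higher and 3 lower. For the amplified groups against bulk (1 called), it was 2 with the deposited values, median centering alone or without the 10 pg array after 2 rounds, 0 by the t-test and at the rate of 0.1%, and 1 to 3 without 1 replicate. For the interaction (4 called), it was 2 with the compared groups alone or the replicate block, 0 at the rate of 0.1%, and 0 to 6 without 1 replicate. With probe sets below the median left out it was 2 higher and 1 lower. The t-test was not run for the interaction. For 1 against 10 pg it was 0 under every alternative run. Replicate numbers do not pair the arrays: same-numbered deviations from the group means correlated at -0.20 to 0.14, and the block changed no other count. Over all genes, the block called 1611 for 0.1 against 10 pg, where 1813 passed without it, and the t-test 779. The t-test called 0 of all genes for 0.1 against 1 pg and for 1 against 10 pg, and 1 for 4 against 2 rounds. Its counts of 0 there show nothing particular to kinesins. Where a side of a comparison held several groups, the t-test pooled their arrays.

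The gap between the transport and mitotic medians with probe sets below the median left out was 0.81 in bulk, 0.20 for 10 pg, 0.92 for 1 pg and 1.17 for 0.1 pg after 2 rounds, and 0.90, -0.019 and 0.23 for 10, 1 and 0.1 pg after 4 rounds. By the median over probe sets it was 0.89, 1.28 and 0.49 after 2 rounds and 1.46, 1.02 and 1.10 after 4. For 10 pg after 4 rounds it was 2.46 with the deposited values or median centering alone and 2.43 after quantile normalization. The sign turned by the median of probe sets for Kif2a (0.38) and Kif13a (-0.041) between 0.1 and 10 pg, for Kif3a between 0.1 and 1 pg (-0.41) and for Kif2a between rounds (-0.27). The deposited values shift the median of all probe sets by 0.20 between 0.1 and 10 pg and by 0.30 against bulk, where centering and scaling leave 0.097 and 0.098. Causes were not tested. Signal above background was not measured, which limits what levels below the array median can show.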
